A study of Mus musculus with 24 samples.

Results

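Dendritic cells take up antigen and present it to T cells, and the conventional kind (cDC) in the mouse spleen falls into CD8+ cells and CD11b+ cells. The data described here set resting CD8+ cDC against resting CD11b+ cDC within 1 strain, the nonobese diabetic (NOD) mouse, which develops autoimmune diabetes. They are 6 of the 24 expression arrays of the series, the 3 titled CD8 NOD PBS and the 3 titled CD11B NOD PBS, read over the 21789 of 35556 probe sets that carry a single gene symbol. The arrays were chosen by their titles and not by any measured value. The cells came from female NOD/ShiLt mice aged 8 to 10 weeks that had been injected with PBS 12 h earlier. Spleens were digested with collagenase, and both subsets were sorted from the CD11c+ fraction. For comparison, 6 arrays hold the same 2 subsets from PBS-injected female C57BL/6 (B6) mice of the same age. A further 6 arrays hold them from NOD mice 12 h after CpG-A, an oligonucleotide that activates Toll-like receptor 9 (TLR9). Whether the arrays of a group stand for different animals is not in the labels, and every p value therefore reflects only the spread among these samples, which may be technical.

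Values are log2 expression values, and a difference is the CD8+ mean minus the CD11b+ mean on that scale, ± the standard error that the limma model gives it (n = 3 arrays in each group). A gene is called higher or lower in CD8+ cDC where the p value of that fit, adjusted by Benjamini-Hochberg over the 11228 genes tested, was under 0.05. The array medians, over probe sets with a listed gene, lay between 5.79 and 5.87, so genes near 5 were dim, and a level below the median in 1 subset shortens the measured difference. Levels are compared between arrays for the same gene and not between genes.

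As background, CD8+ cDC are known to depend on the transcription factors IRF8, BATF3 and ID2, to take up dying cells and to cross-present their antigens on MHC class I to CD8+ T cells. They carry XCR1, the receptor for the chemokine XCL1. CD11b+ cDC are known to depend on IRF4 and on Notch signalling, and to present antigen on MHC class II to CD4+ T cells. Whether a transcript is lower because fewer cells of the sort carried it or because each cell held less of it cannot be told apart in these bulk samples.

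The sort labels were first checked against genes that mark each subset. Cd8a, which encodes the surface protein that names the CD8+ subset and was used to sort it, read 11.00, 10.99 and 11.19 on the 3 CD8+ arrays and 5.04, 5.14 and 6.15 on the 3 CD11b+ arrays. Itgam, which encodes CD11b and was likewise used in the sort, read 4.87, 4.45 and 5.27 on the CD8+ arrays against 8.54, 8.93 and 8.89 on the CD11b+ arrays. Neither gene's groups overlapped, and the differences were 5.62 ± 0.26 (49.1-fold) and -3.92 ± 0.24 (15.2-fold). The chemokine receptor gene Xcr1 read 11.31, 11.31 and 11.49 in CD8+ and 6.81, 7.01 and 7.00 in CD11b+ cDC. Clec9a, whose product binds exposed actin of dead cells, read 11.51, 11.34 and 11.44 and 7.83, 7.77 and 8.02. On the other side, Sirpa, which encodes the receptor for the CD47 "do not eat me" signal, read 8.95, 8.68 and 8.81 in CD8+ and 11.49, 11.24 and 11.40 in CD11b+ cDC. Cd4 read 7.89, 7.63 and 7.92 and 9.66, 9.50 and 9.31. In each of these genes all 3 arrays of 1 subset lay above all 3 of the other.

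Lists of identity genes of each subset were written with earlier results of these data known, and they hold genes used in the sort. Their counts are therefore not an independent check of the labels. Of 21 tested genes in a list of CD8+ cDC identity genes, 19 were higher in CD8+ cDC and none lower, with a median difference of 2.99. Over all 11228 genes tested 10.6% were called higher and 11.2% lower, 21.8% in all, and the median difference was -0.009. These shares are the background for every list count below. The 2 members that did not pass were Wdfy4, needed for cross-presentation of cell-associated antigen (0.34 ± 0.17, adjusted p = 0.188 in the limma fit), and the septin gene Septin3 (0.49 ± 0.29, adjusted p = 0.268). Of the 2 tested Wdfy4 probe sets the other was called higher (0.54), and the gene passed in 3 of 13 other settings of the filter, normalization, model or arrays fitted (adjusted p from 0.00162 to 0.0469). Of these 13 settings 1, the limma fit of the 12 PBS arrays alone, was added after seeing the data, and it gave the 0.00162. Of 22 tested CD11b+ cDC identity genes 19 were lower in CD8+ cDC and 3 higher, with a median of -1.55. The 3 that went against the list's name were the inhibitory lectin gene Clec12a (1.96 ± 0.21), the DC-SIGN family gene Cd209d (1.67 ± 0.22) and Rbpj, the DNA-binding partner of Notch (0.67 ± 0.10). Cd209d is also listed among markers of plasmacytoid DC. H2-Aa, an MHC class II chain, read 11.98, 11.92 and 11.86 in CD8+ cDC and 11.96, 12.02 and 11.79 in CD11b+ cDC, a difference of -0.00 ± 0.07 (adjusted p = 0.983). Itgax, which encodes CD11c, was lower in CD8+ cDC (-0.76 ± 0.18).

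**Figure D1:**
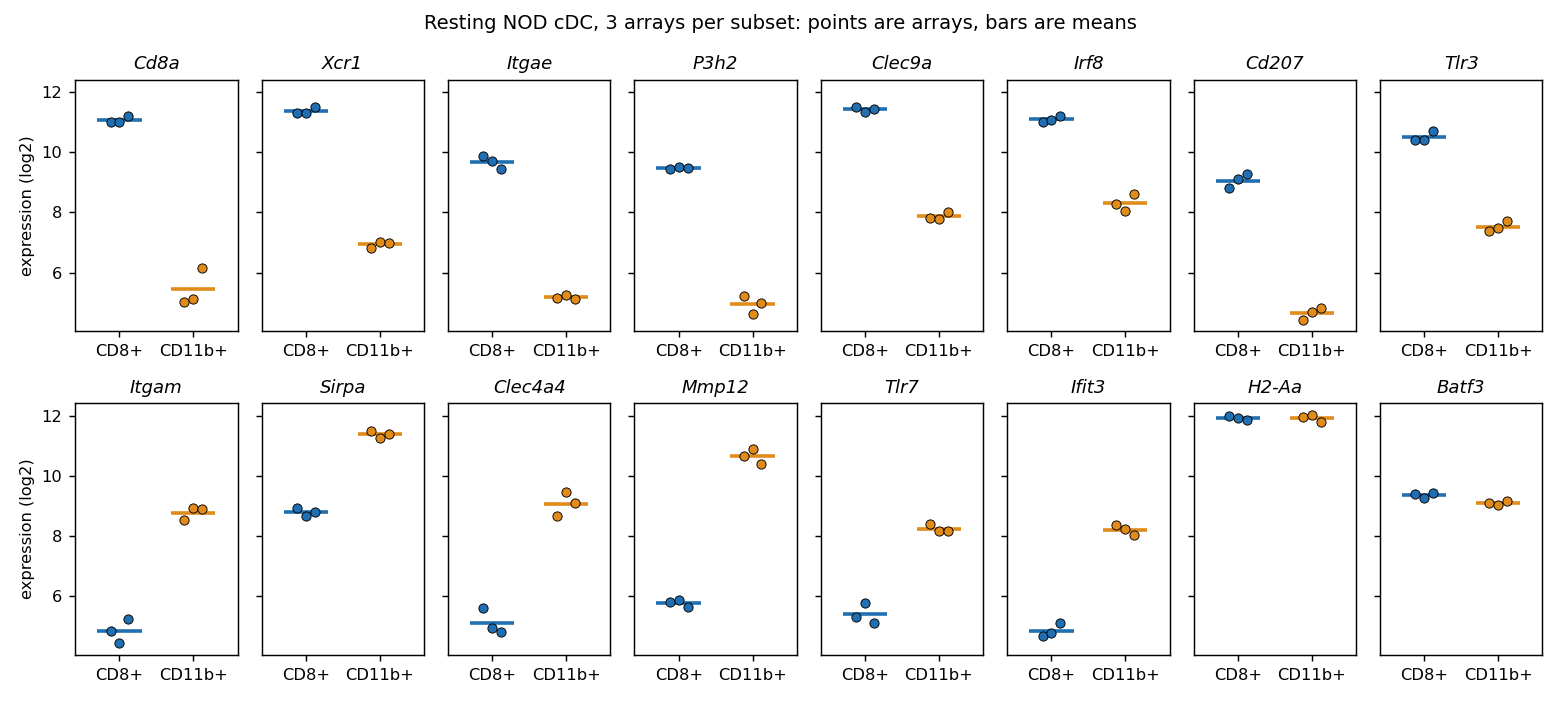
Log2 expression of 16 genes (one panel each) on the 3 CD8+ (blue) and 3 CD11b+ (orange) arrays of PBS-injected NOD mice; points are arrays and bars their mean. Cd8a, Xcr1, Itgae, P3h2, Clec9a, Irf8, Cd207 and Tlr3 lie wholly higher on the CD8+ arrays, Itgam, Sirpa, Clec4a4, Mmp12, Tlr7 and Ifit3 wholly lower, and H2-Aa and Batf3 differed by -0.00 and 0.25 without passing the test.

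Markers of other cells were read on the same arrays, beside the 10.6% of all genes called higher and 11.2% called lower. Those of plasmacytoid DC were higher in CD8+ cDC in 8 of 13 tested and lower in 2, and the mean over the list ran from 7.47 to 7.63 on the CD8+ arrays and from 6.88 to 7.20 on the CD11b+ arrays. Siglech read 7.59, 7.49 and 7.75 against 5.79, 5.62 and 5.98. Monocyte markers were lower in 7 of 13 and higher in 1, with list means of 7.06 to 7.18 and 7.92 to 8.16, though F13a1 was too dim to be tested, with 5.13 on its highest array, and Ccr2 did not pass (-0.19 ± 0.30, adjusted p = 0.745). Of 6 tested neutrophil markers 3 were lower and none higher (list means 5.27 to 5.37 and 6.27 to 6.64), among them Mmp9 (-2.69 ± 0.20) and Retnlg (-1.28 ± 0.20). The defining neutrophil gene Ly6g was too dim to be tested, with 4.43 on its highest array, and S100a8 (-0.71 ± 0.39, adjusted p = 0.217) and S100a9 (-1.06 ± 0.38, adjusted p = 0.0511) did not pass. S100a9 read 5.88, 6.13 and 6.48 on the CD8+ and 6.56, 7.00 and 8.10 on the CD11b+ arrays, with replicate 3 of CD11b+ the highest, and passed in 6 of 13 other settings (adjusted p from 0.0123 to 0.049), the replicate block among them (0.046), and without replicate 1 of CD11b+ (0.0186). S100a8 passed in 3 of the 13 (0.00673 to 0.0498). Red pulp macrophage markers were higher in 2 of 13 and lower in 1 (23.1%, near the 21.8% of all genes), with list means of 6.44 to 6.82 and 7.08 to 7.17. The higher ones were Vcam1 and Hmox1, and the lower one was Adgre1. The complement gene C1qc differed by -1.20 ± 0.45 without passing (adjusted p = 0.0591, but from 0.00193 to 0.0342 in 5 of 13 other settings, among them 0.0079 with the replicate block).

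B cell transcripts varied between arrays of a group. Cd79a read 9.57, 9.54 and 8.61 on the CD8+ and 7.46, 8.34 and 9.31 on the CD11b+ arrays and did not pass (0.87 ± 0.49, adjusted p = 0.236). The means over 17 tested B cell markers ran from 7.56 to 8.57 and from 7.19 to 8.26 in the groups, with 2 higher and 1 lower. The share called was 17.6%, below the 21.8% of all genes. Ms4a1, the CD20 gene, was higher (1.59 ± 0.48, adjusted p = 0.0191), but not without replicate 1 of CD8+ (adjusted p = 0.0806), replicate 2 of CD8+ (0.0895) or replicate 1 of CD11b+ (0.162). NK cell markers were higher in 2 and lower in 3 of 17 (29.4%), with list means of 5.85 to 6.00 and 5.96 to 6.12. Klrb1c was dim on all 6 arrays, from 3.35 to 3.72, and Nkg7, a granule gene, read 6.44, 6.70 and 7.24 in CD8+ and 4.77, 4.91 and 5.42 in CD11b+ cDC (1.76 ± 0.29), an order not seen in B6 (-0.65 ± 0.29, interaction 2.42 ± 0.41). Klrd1, which CD11b+ arrays held at 10.71, 10.98 and 10.63 and CD8+ arrays at 9.30, 8.96 and 8.95, was lower in CD8+ cDC (-1.71 ± 0.23). T cell markers were higher in 1 and lower in 2 of 9, or 33.3% (list means 6.14 to 6.38 and 5.99 to 6.15). Cd3e was higher in CD8+ cDC (1.01 ± 0.17) and Cd5 and Icos were lower. Erythroid and platelet markers (1 higher and 1 lower of 7), stroma and endothelium markers (2 and 1 of 7) and mast cell and basophil markers (none and 1 of 3) were few. Their shares called were 28.6%, 42.9% and 33.3%, each from few genes. The part of any such cells in the differences between the subsets was not tested.

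**Figure D2:**
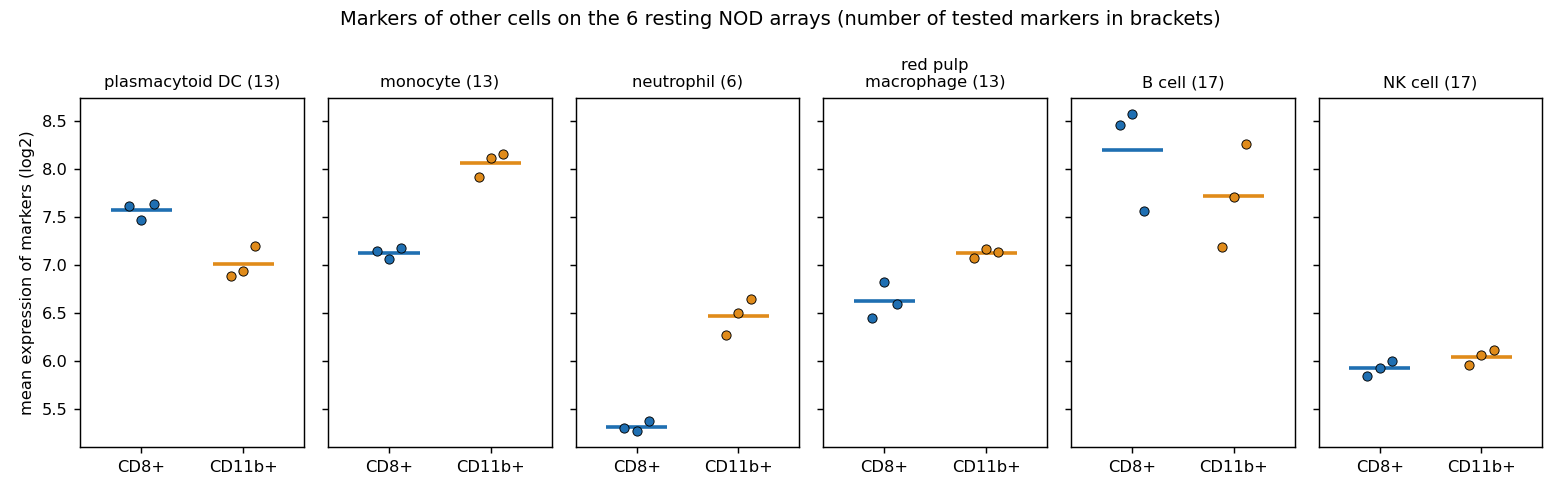
Mean log2 expression over the tested markers of 6 other cell types on each of the 6 NOD PBS arrays (CD8+ blue, CD11b+ orange; points are arrays, bars group means). Monocyte, neutrophil and red pulp macrophage lists lie higher on the CD11b+ arrays and the plasmacytoid DC list on the CD8+ arrays, while B cell and NK cell lists overlap between the subsets.

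Across the transcriptome 2448 genes were called, 1192 higher and 1256 lower in CD8+ cDC. Of these 339 were higher (3.02% of genes tested) and 350 lower (3.12%) by at least 2-fold, 689 in all (6.14%). The arrays of the subsets did not overlap for 1167 of the 1192 higher and for 1232 of the 1256 lower genes, against 37.9% of all genes tested. After Cd8a, the largest difference in favour of CD8+ cDC was in P3h2, which encodes a prolyl hydroxylase of collagen. It read 9.46, 9.50 and 9.49 against 5.22, 4.62 and 5.00, a difference of 4.53 ± 0.15 and 23.1-fold. Next came Itgae, the integrin chain CD103 (9.88, 9.71 and 9.45 against 5.18, 5.25 and 5.14), Xcr1, and Cd207, which encodes the endocytic lectin langerin (8.81, 9.10 and 9.26 against 4.44, 4.69 and 4.84). Further down the 20 highest were the late endosome GTPase gene Rab7b (3.81 ± 0.28), the lipid phosphatase gene Plpp1 (3.46 ± 0.27), the UDP-sugar receptor gene P2ry14 (3.45 ± 0.23) and the disulfide isomerase gene Pdia5 (3.24 ± 0.20). The orphan receptor genes Gpr141b (3.99 ± 0.23) and Gpr33 (2.99 ± 0.22) were among them too.

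In CD11b+ cDC the largest excess was in Mmp12, the macrophage elastase gene. It read 5.82, 5.90 and 5.64 on the CD8+ arrays and 10.66, 10.90 and 10.40 on the CD11b+ arrays, so that it was lower in CD8+ cDC by 29.2-fold (-4.87 ± 0.20). The lectin gene Clec4a1 came next (-4.54 ± 0.36). The 20 lowest genes also held the metalloprotease gene Adamdec1 (-4.07 ± 0.26), the macrophage marker gene Adgre1 (-3.99 ± 0.31), its relative Adgre4 (-3.33 ± 0.27) and the cell adhesion gene Dscam, which read 5.21, 5.33 and 5.36 in CD8+ and 8.92, 8.85 and 8.88 in CD11b+ cDC. The transglutaminase gene Tgm2 (-3.42 ± 0.22), the sciellin gene Scel (-3.63 ± 0.16) and the embigin gene Emb (-3.40 ± 0.25) were among them too. Gpr141, the paralogue of Gpr141b, was lower by 11.9-fold (-3.58 ± 0.25), so this pair of receptor genes went in opposite directions.

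**Figure D3:**
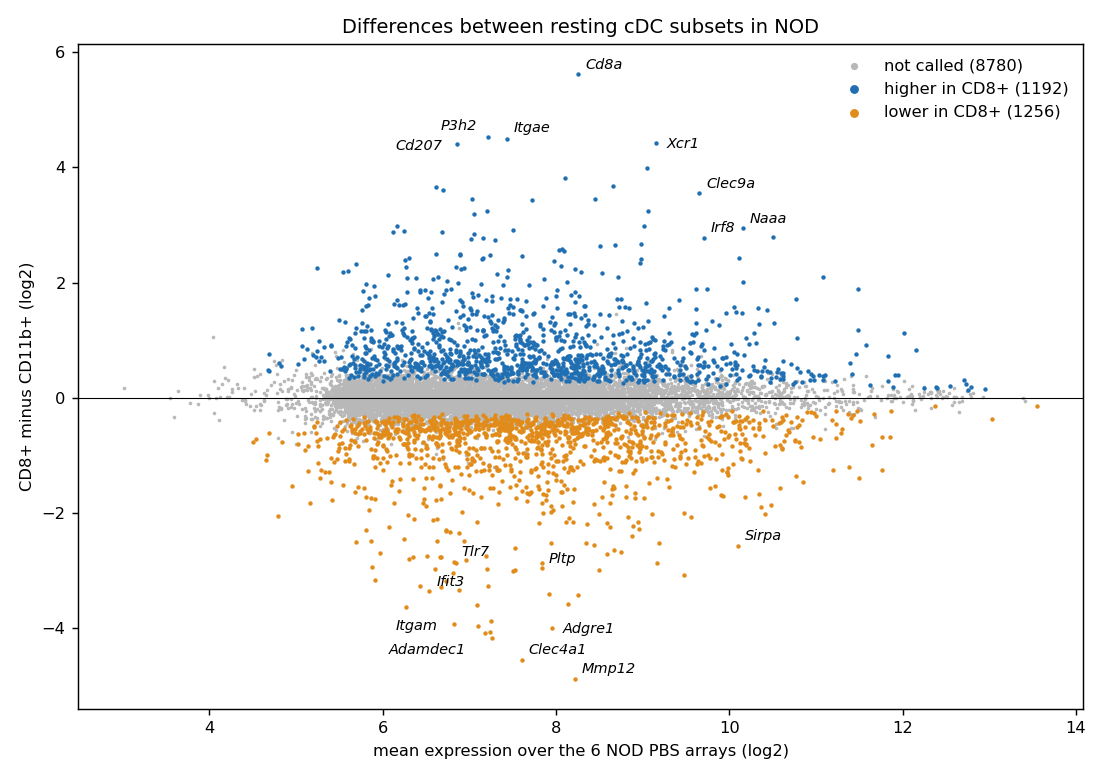
Difference (CD8+ minus CD11b+, log2) against mean log2 expression over the 6 NOD PBS arrays for the 11228 genes tested; blue points were called higher in CD8+ cDC (1192), orange points lower (1256) and grey points were not called. The leading genes of each side are labelled, from Cd8a at 5.62 to Mmp12 at -4.87.

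Among 41 tested transcription factor genes linked to the DC lineage, 7 were higher and 11 lower in CD8+ cDC (43.9%, against 21.8% of all genes), and the median difference was -0.02. Irf8, on which CD8+ cDC depend, read 11.00, 11.07 and 11.21 in CD8+ cDC and 8.28, 8.06 and 8.61 in CD11b+ cDC, a difference of 2.78 ± 0.14. Id2, which restrains E proteins, was higher by 1.31 ± 0.10. Batf3 read 9.40, 9.26 and 9.42 against 9.10, 9.04 and 9.17, a difference of 0.25 ± 0.10 that did not pass (adjusted p = 0.0746 in the limma fit), though its arrays did not overlap and it passed in 4 of 13 other settings (adjusted p from 0.0343 to 0.0446), the replicate block among them. The CD11b+ side held Zeb2, a repressor linked to the CD11b+ lineage (-1.53 ± 0.18), Irf4 (-0.82 ± 0.14), Runx3 (-1.03 ± 0.19) and Bhlhe40 (-1.09 ± 0.23). The C/EBP genes Cebpd (-1.02 ± 0.18) and Cebpb (-0.97 ± 0.14) were also lower in CD8+ cDC. Mycl, the MYC family member of cDC (0.81 ± 0.20), and Nr4a3 (0.76 ± 0.19) were higher.

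Of 27 tested Notch pathway genes 6 were higher and 5 lower (40.7%, against 21.8% of all genes). Notch4 read 9.54, 9.13 and 9.33 in CD8+ and 7.19, 6.97 and 7.14 in CD11b+ cDC, a difference of 2.23 ± 0.18, whereas Notch2, the receptor known for its role in splenic CD11b+ cDC, did not pass (-0.12 ± 0.12, adjusted p = 0.577). The Notch target and ubiquitin ligase gene Dtx1 was lower (-1.63 ± 0.24), as were the fringe glycosyltransferase genes Lfng (-0.57 ± 0.11) and Mfng (-0.50 ± 0.14).

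C-type lectins, receptors that bind glycans and other ligands on microbes and dying cells, differed in most of their members. Of 27 tested members 9 were higher and 12 lower (77.8%, against 21.8% of all genes), and 18 of these calls were at least 2-fold. The list also holds Siglec genes such as Siglech, which are lectins of another family. Neighbouring genes of the Clec4 cluster stood on opposite sides. Clec4a1, Clec4a3, Clec4a4, Clec4b1 and Clec4a2 formed a run of 5 adjacent tested genes that were all lower in CD8+ cDC, by differences from -4.54 to -3.16. Clec4a4, which encodes the inhibitory lectin DCIR2, read 5.61, 4.97 and 4.81 in CD8+ and 8.67, 9.46 and 9.10 in CD11b+ cDC. Clec4b2 of the same family read 8.35, 8.42 and 8.58 in CD8+ cDC and 5.03, 4.65 and 4.67 in CD11b+ cDC, a difference of 3.67 ± 0.17 in the other direction. Probes of such close relatives may share sequence, which leaves their assignment to 1 gene uncertain. Other lectins on the CD8+ side were Clec1a (2.88 ± 0.24), the DEC-205 gene Ly75 (2.18 ± 0.22) and Siglech, which also marks plasmacytoid DC (1.81 ± 0.18). The Dectin-2 gene Clec4n (-2.80 ± 0.34), Cd209a (-2.01 ± 0.37) and Clec10a (-1.53 ± 0.28) were on the CD11b+ side.

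Scavenger, Fc and complement receptor genes were more often lower, with 13 lower and 5 higher of 33 tested (54.5%, against 21.8% of all genes) and a median of -0.35. The IgG receptor gene Fcgr4 read 5.80, 5.39 and 5.57 in CD8+ and 7.27, 8.23 and 8.13 in CD11b+ cDC. Fcer1g, the signalling chain that activating Fc receptors share, read 9.81, 9.79 and 9.79 and 11.26, 11.45 and 11.38. Fcgr3 was lower as well (-0.87 ± 0.21), while Fcgr2b, the inhibitory IgG receptor, did not pass (-0.29 ± 0.23, adjusted p = 0.433). The inhibitory receptor gene Cd300lf (-2.72 ± 0.16) was lower, and the scavenger receptor gene Cd36 (3.25 ± 0.27) and Treml4 (1.50 ± 0.22) were higher in CD8+ cDC.

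Runs of adjacent genes were looked for among 11191 tested genes with a known position. There were 87 runs of 3 or more neighbours called in the same direction, with 292 genes in all, and 23 of these runs held at least 4. Besides the Clec4 run they included Oas2, Oas3, Oas1c, Oas1b and Oas1a with the neighbouring Dtx1 (from -2.75 to -0.50), Ifit2, Ifit3, Ifit3b and Ifit1 (from -3.36 to -1.19), and Ifitm2, Ifitm1, Ifitm3 and Ifitm6 (from -2.86 to -1.20), all lower in CD8+ cDC. Rgs2, Rgs1, Rgs18, Pla2g4a and Ptgs2 were lower together (from -1.50 to -0.61). The antigen processing genes Psmb9, Tap1, Psmb8 and Tap2 were higher together (from 0.40 to 1.08). So were Naaa and Cxcl9 with Ppef2 and Sdad1 between or beside them (from 1.71 to 2.94), and Btla, Cd200 and Gcsam (from 1.57 to 3.43). How many such runs would be seen in another order of genes was not tested.

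Pattern recognition receptors were divided between the subsets. Tlr3, the sensor of double-stranded RNA, read 10.41, 10.41 and 10.69 in CD8+ cDC and 7.37, 7.47 and 7.71 in CD11b+ cDC, and Tlr12, a sensor of profilin, was higher by 1.43 ± 0.22. Tlr7, the sensor of single-stranded RNA, read 5.30, 5.79 and 5.13 in CD8+ and 8.39, 8.17 and 8.18 in CD11b+ cDC, and Tlr1, a partner of TLR2 (-1.01 ± 0.18), was lower too. Tlr9 read 9.34, 9.25 and 9.40 against 9.81, 9.59 and 9.86, and its groups did not overlap either, although the difference was small (-0.42 ± 0.11). Unc93b1, the chaperone that carries endosomal TLRs to their place, differed by -0.00 ± 0.13 (adjusted p = 0.996). In the list of 28 tested genes for TLRs and their signalling partners 4 were higher and 6 lower (35.7%, against 21.8% of all genes). Of 20 tested cytosolic sensor genes 2 were higher and 7 lower (45%). Nod1, which senses bacterial peptidoglycan, read 7.05, 6.93 and 7.01 in CD8+ and 8.84, 8.87 and 9.11 in CD11b+ cDC. The RNA sensor gene Ifih1 (-1.54 ± 0.16) and the DNA-sensing adaptor gene Sting1 (-0.92 ± 0.14) were lower, and the DNA sensor gene Cgas did not pass (-0.01 ± 0.17, adjusted p = 0.989).

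Inflammasome and interleukin-1 family genes were lower in 8 of 20 and higher in 1 (45%, against 21.8% of all genes), with a median of -0.30. Nlrp3 read 6.79, 6.66 and 6.70 in CD8+ and 8.03, 8.01 and 7.86 in CD11b+ cDC, and Nlrc4 (-1.57 ± 0.17), Mefv (-1.57 ± 0.18) and Nlrp10 (-1.39 ± 0.17) were lower as well. Il1r2, the decoy receptor, read 5.81, 5.49 and 5.44 against 7.47, 8.17 and 8.04. Il1b itself did not pass (-0.65 ± 0.24, adjusted p = 0.0602) but passed in 6 of 13 other settings (adjusted p from 0.00131 to 0.0364), among them the replicate block (0.0254), array weights and fits of fewer arrays. The lowest of these came from the unplanned fit of the 12 PBS arrays. The adaptor gene Pycard did not pass (-0.12 ± 0.18, adjusted p = 0.726).

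Genes for the MHC class I route were mostly higher in CD8+ cDC. Of 20 tested genes for MHC class I presentation 13 were higher in CD8+ cDC and 1 lower, with a median of 0.47, against 10.6% and 11.2% of all genes. Nlrc5, the transactivator of class I genes, read 11.19, 10.65 and 10.81 in CD8+ and 9.46, 9.40 and 9.36 in CD11b+ cDC. The peptide transporter gene Tap1 (1.08 ± 0.13), the peptide editor gene Tapbpl (0.95 ± 0.14) and Cd1d1, which presents lipids (1.47 ± 0.16), were higher. B2m, the class I light chain, did not pass. The class I chain genes H2-K1 and H2-D1 had no probe set with a single symbol and were not tested. The class I count therefore does not describe these chains. For MHC class II 2 of 16 tested genes were higher and 5 lower, and the chains themselves did not pass (H2-Ab1 at -0.10, H2-Eb1 at 0.05). Neither did Ciita, their transactivator (-0.03 ± 0.20, adjusted p = 0.955), nor Cd74, the invariant chain (0.01 ± 0.04, adjusted p = 0.889). The class II gene H2-Eb2 was lower (-1.15 ± 0.15).

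Lysosomal genes split. Among 32 tested lysosomal proteases, partners and inhibitors, 12 were higher and 11 lower (71.9%, against 21.8% of all genes). Naaa, an amidase of the lysosome, read 11.50, 11.59 and 11.78 in CD8+ and 8.82, 8.48 and 8.74 in CD11b+ cDC, and Psap, the precursor of the saposins, 12.55, 12.60 and 12.58 and 11.60, 11.33 and 11.44. The serine protease inhibitor genes Serpinb6b (2.64 ± 0.16) and Serpinb9, an inhibitor of granzyme B (2.44 ± 0.16), were higher. The lysozyme gene Lyz2 (-2.01 ± 0.28), and the cathepsin genes Ctsa (-1.26 ± 0.23), Ctsc (-1.04 ± 0.16) and Ctss (-0.39 ± 0.07) were lower. Ctsb (0.23 ± 0.14) and Ctsl (-0.07 ± 0.23) did not pass (adjusted p = 0.253 and 0.883 in the limma fit). In the list of cross-presentation and phagosome genes 10 of 29 were higher and 4 lower. Rab7b led it, followed by the pore-forming perforin-2 gene Mpeg1 (2.42 ± 0.11) and the GTPase genes Rab32 (1.30 ± 0.16) and Rab43 (0.96 ± 0.13), whereas the proton channel gene Hvcn1 was lower (-1.56 ± 0.17). Cybb, the catalytic subunit of the NADPH oxidase, did not pass (-0.19 ± 0.19, adjusted p = 0.544).

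**Figure D4:**
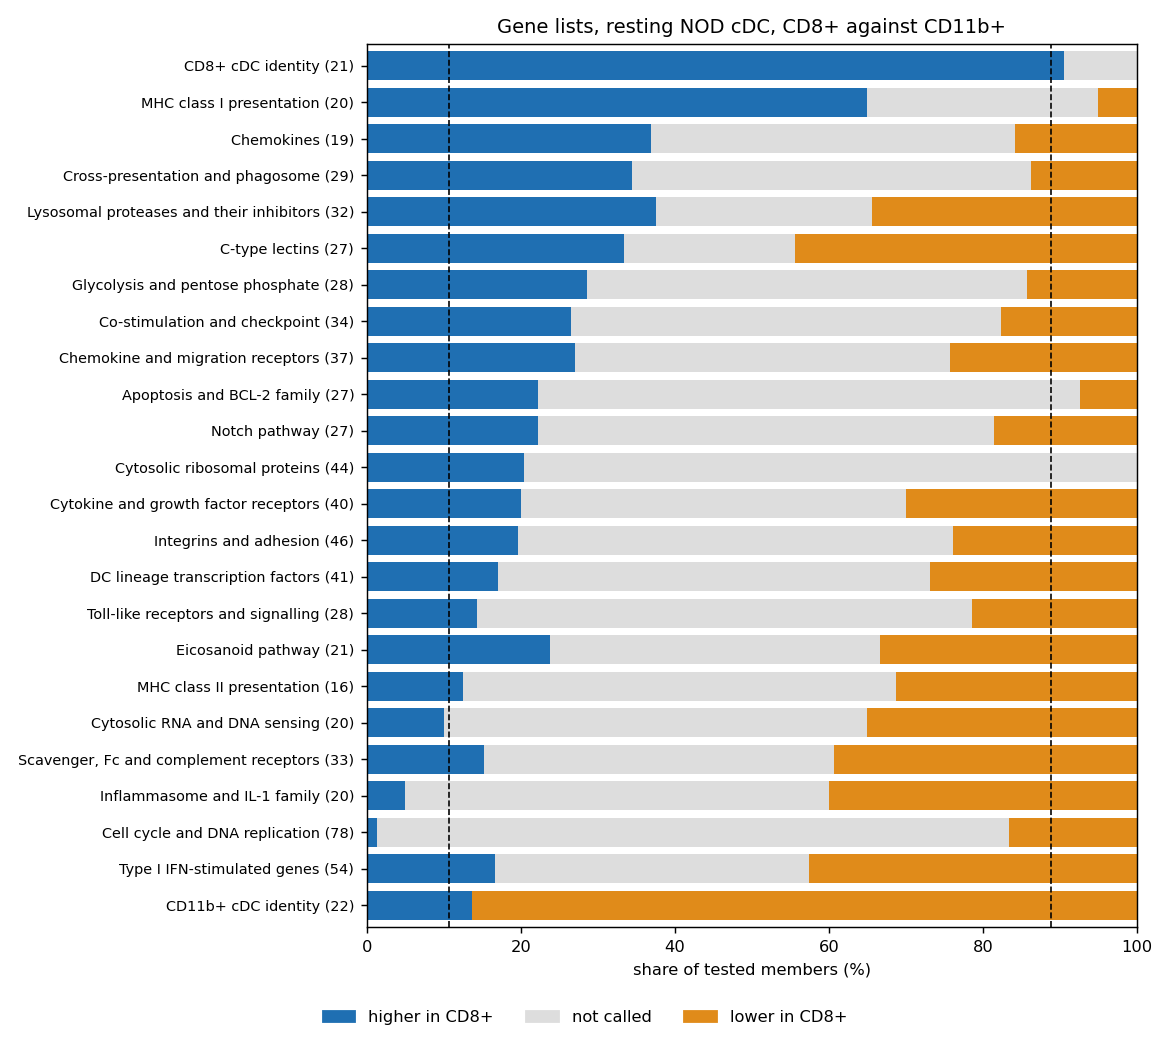
For 24 gene lists, the number of tested members called higher (blue), not called (grey) and lower (orange) in CD8+ against CD11b+ cDC of PBS-injected NOD mice, as a percentage of the tested members, whose number stands beside each name. Dashed lines mark the shares over all 11228 genes, 10.6% higher from the left and 11.2% lower from the right. The CD8+ identity list (19 of 21 higher) and the MHC class I list (13 of 20 higher) reach farthest from the left, and the CD11b+ identity list (19 of 22 lower) from the right. All lists were written with earlier results of these data known, and the identity lists hold genes used in the sort.

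Adhesion genes were called in both directions, with 9 of 46 higher and 11 lower (43.5%, against 21.8% of all genes). Besides Itgae, the higher ones included Cadm1, a cell adhesion molecule of CD8+ cDC (10.34, 10.25 and 10.36 against 7.72, 7.41 and 7.79), the integrin chain gene Itga8 (2.50 ± 0.19), Sema4a (2.10 ± 0.18) and the tetraspanin gene Cd81 (1.71 ± 0.15). The semaphorin receptor gene Plxnd1 (-1.88 ± 0.13), the endothelial adhesion gene Esam (5.87, 6.08 and 5.77 in CD8+ and 7.49, 7.50 and 7.27 in CD11b+ cDC) and Epcam (-1.26 ± 0.13) were lower.

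Signals exchanged with T cells differed gene by gene. Of 34 tested co-stimulation and checkpoint genes 9 were higher and 6 lower (44.1%, against 21.8% of all genes). The co-stimulatory ligand gene Cd86 read 10.77, 10.57 and 10.80 in CD8+ cDC and 9.70, 9.81 and 9.53 in CD11b+ cDC, whereas its relative Cd80 did not pass (-0.19 ± 0.16, adjusted p = 0.468). The inhibitory receptor gene Btla read 9.14, 9.18 and 9.28 against 6.76, 7.01 and 6.96, and the ligand genes Pvr (2.07 ± 0.18) and Cd200 (1.57 ± 0.20) were higher too. Both PD-1 ligand genes were lower in CD8+ cDC. Pdcd1lg2, the PD-L2 gene, read 6.27, 5.92 and 5.59 in CD8+ and 7.75, 7.98 and 7.99 in CD11b+ cDC, and Cd274, the PD-L1 gene, differed by -0.94 ± 0.19. Of 24 tested genes linked to tolerance 5 were higher and 6 lower. The inhibitory receptor genes Pilra (-1.88 ± 0.34) and Pirb (-1.05 ± 0.13) were lower, the cytokine signalling suppressor gene Socs2 was higher (1.00 ± 0.21), and Aldh1a2, which makes retinoic acid, did not pass (0.27 ± 0.14, adjusted p = 0.185).

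Among cytokine genes 3 of 22 were higher and 5 lower (36.4%, against 21.8% of all genes). Il15, which sustains NK cells and memory CD8+ T cells, read 8.51, 8.03 and 7.88 in CD8+ and 5.66, 5.55 and 5.72 in CD11b+ cDC, and the gene of its presenting receptor chain, Il15ra, was higher as well (1.74 ± 0.23). Ltb, which encodes lymphotoxin beta, was lower (-1.24 ± 0.22). Il12b, the p40 chain of interleukin-12, did not pass (0.35 ± 0.17, adjusted p = 0.154). Of 19 tested chemokine genes 7 were higher and 3 lower. Cxcl9, which attracts activated T cells, read 11.88, 11.91 and 11.89 against 8.67, 9.03 and 9.64, and Ccl22 read 9.66, 9.31 and 9.01 against 6.59, 6.60 and 7.06. Ccl3 (-2.08 ± 0.44) and Ccl9 (-1.66 ± 0.19) were lower. Chemokine and migration receptors went both ways, with 10 of 37 higher and 9 lower. Besides Xcr1, Ccr9 (2.10 ± 0.22), Cxcr3 (1.60 ± 0.23) and Ccr7, which guides migration to lymph nodes (1.31 ± 0.20), were higher, and Ccr6 was lower (-1.39 ± 0.22). Ccr9 is also listed among the plasmacytoid DC markers. Among cytokine receptors, where 8 of 40 were higher and 12 lower, Csf1r (-1.81 ± 0.26) and Csf3r (-1.20 ± 0.16) were lower and the granulocyte-macrophage colony-stimulating factor receptor gene Csf2rb was higher (0.63 ± 0.13).

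Type I interferon (IFN)-stimulated genes, which cells switch on when type I IFN binds its receptor, were called in both directions without CpG. Of 54 tested members 23 were lower in CD8+ cDC and 9 higher (59.3%, against 21.8% of all genes), with a median of -0.30. Ifit3, an antiviral RNA-binding gene, read 4.69, 4.78 and 5.11 in CD8+ cDC and 8.38, 8.24 and 8.02 in CD11b+ cDC, and Oas2, an oligoadenylate synthetase, 5.59, 5.35 and 4.96 and 8.45, 7.82 and 7.89. Ifitm3, which blocks virus entry, read 10.80, 10.79 and 10.73 against 11.98, 11.99 and 11.97, a difference of -1.21 ± 0.06 with little spread in either group. On the other side Epsti1 read 11.23, 10.83 and 10.88 in CD8+ and 9.64, 9.61 and 9.84 in CD11b+ cDC, Trim30a 10.42, 10.41 and 10.58 and 9.66, 9.72 and 9.76, and Mx1 8.02, 7.65 and 7.88 and 6.92, 6.39 and 6.78. Irf7, the amplifier of the IFN response, did not pass (0.19 ± 0.14, adjusted p = 0.394). Stat2 was lower (-0.60 ± 0.15), and Irf1 (0.65 ± 0.14), Irf5 (0.50 ± 0.11) and the kinase gene Tyk2 (0.88 ± 0.16) higher, among 26 tested IRF and STAT pathway genes of which 5 were higher and 5 lower. The IFN-inducible GTPase genes were divided too, with Gbp5 (1.42 ± 0.20) higher and Gbp7 (-1.42 ± 0.21) and Gbp8 (-0.93 ± 0.15) lower. Of 9 tested 3 were higher and 2 lower.

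IRF9 is known to bind the IFN-stimulated response element, searched here on both strands as GAAA, any 2 bases and GAAA again, in windows from 250 bases before to 50 bases after RefSeq transcription starts (GRCm38.p6). Windows were at hand for 8980 of the 11228 genes tested, and some genes had several. The motif was in 3.2% of these 11347 windows. It was in 11 of 21 windows (52.4%) of 17 IFN-stimulated genes that were lower in CD8+ cDC. For 6 that were higher it was in 4 of 7 windows (57.1%), and for 18 not called in 3 of 20 (15.0%). Windows of genes on either side thus held it, as the following show, with each match in capitals. Ifit3 and Ddx60, an RNA helicase gene (-2.47 ± 0.19), were lower in CD8+ cDC, and Bst2, the tetherin gene (0.77 ± 0.15), and Eif2ak2, the RNA-activated kinase PKR (0.53 ± 0.13), were higher. Bst2 is also listed among the plasmacytoid DC markers. A match is a description of the letters and not a bound site.
Ifit3 (chr19:34583279-34583578, + strand): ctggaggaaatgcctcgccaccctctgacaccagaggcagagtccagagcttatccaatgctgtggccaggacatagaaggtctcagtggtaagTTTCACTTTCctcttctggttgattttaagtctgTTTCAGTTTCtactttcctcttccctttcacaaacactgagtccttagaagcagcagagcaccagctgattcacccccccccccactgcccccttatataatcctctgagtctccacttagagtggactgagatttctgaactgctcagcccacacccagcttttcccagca
Ddx60 (chr8:61927837-61928136, + strand): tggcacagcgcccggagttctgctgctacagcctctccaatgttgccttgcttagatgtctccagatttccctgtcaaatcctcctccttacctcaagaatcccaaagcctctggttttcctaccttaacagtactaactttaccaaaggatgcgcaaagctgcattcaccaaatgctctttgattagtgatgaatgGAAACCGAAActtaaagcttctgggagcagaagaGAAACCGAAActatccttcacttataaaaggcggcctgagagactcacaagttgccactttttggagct
Bst2 (chr8:71537423-71537722, - strand): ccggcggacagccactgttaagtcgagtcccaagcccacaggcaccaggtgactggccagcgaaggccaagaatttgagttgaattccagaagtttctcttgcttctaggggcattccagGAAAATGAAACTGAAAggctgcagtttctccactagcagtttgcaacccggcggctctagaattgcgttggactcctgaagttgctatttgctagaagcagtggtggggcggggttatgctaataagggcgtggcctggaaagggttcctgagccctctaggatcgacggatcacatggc
Eif2ak2 (chr17:78882523-78882822, - strand): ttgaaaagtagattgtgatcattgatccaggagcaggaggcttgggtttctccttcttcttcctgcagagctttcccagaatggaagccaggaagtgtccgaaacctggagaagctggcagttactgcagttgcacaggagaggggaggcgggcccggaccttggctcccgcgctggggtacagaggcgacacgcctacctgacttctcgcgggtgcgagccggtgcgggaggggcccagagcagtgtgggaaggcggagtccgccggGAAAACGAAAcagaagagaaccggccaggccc

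The base composition of promoters was set beside the calls. The observed over expected CpG ratio, low in promoters without a CpG island, had a median of 0.747 over all windows of tested genes that had one. It was 0.557 in 347 windows of genes higher by at least 2-fold and 0.428 in 388 windows of genes lower by at least 2-fold, against 0.762 where genes were not called. Over all called genes it was nearer to that, 0.714 for the higher and 0.668 for the lower ones. The AP-1 motif TGANTCA was in 9.22% and 9.28% of the windows of these sets, against 5.16% of all windows, 6.68% for all called higher and 5.01% for all called lower genes. The composite ETS-IRF motif, GGAA and GAAA with 2 bases between, was in 2.88% and 2.84%, against 2.5%, and the composite AP1-IRF motif, TTTC and TGA with 4 bases between, in 4.32% and 4.64%, against 3.14%. These shares carry no test, and both strands were searched for each motif.

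Lipid mediators and metabolism differed as well. Of 21 tested eicosanoid pathway genes 5 were higher and 7 lower (57.1%, against 21.8% of all genes), 10 of them by at least 2-fold. Ptgs2, the inducible cyclooxygenase, read 7.06, 6.56 and 6.74 in CD8+ and 7.94, 8.88 and 8.05 in CD11b+ cDC. Pla2g4a (-1.23 ± 0.14), which frees arachidonic acid, Lta4h (-1.66 ± 0.21), which makes leukotriene B4, and the prostaglandin E2 receptor gene Ptger3 (-2.03 ± 0.21) were lower too. Tbxas1, the thromboxane synthase, read 8.13, 7.65 and 8.08 against 6.15, 6.02 and 6.21, and Ptger2, a prostaglandin E2 receptor that signals through cAMP, was higher (1.33 ± 0.15). In glycolysis 8 of 28 were higher and 4 lower, with the hexokinase gene Hk3 (1.88 ± 0.17) and the phosphofructokinase gene Pfkp (1.52 ± 0.17) on the CD8+ side and the glucose transporter gene Slc2a3 (-1.64 ± 0.15) on the other. Pltp, a phospholipid transfer protein, read 6.25, 6.34 and 6.49 in CD8+ and 9.28, 9.25 and 9.40 in CD11b+ cDC, a difference of -2.95 ± 0.17, while the lipid droplet gene Plin2 (1.77 ± 0.15) and the desaturase gene Fads1 (1.45 ± 0.19) were higher in CD8+ cDC. The lipoprotein genes Lpl (-1.14 ± 0.15) and Apoe (-0.86 ± 0.18) were lower. In this list of 49 tested genes of cholesterol and lipid metabolism 9 were higher and 14 lower.

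Housekeeping lists were read as well, beside the 21.8% called over all genes. The share called was 20.5% for ribosomal protein genes and 6.25% for oxidative phosphorylation. It was 17.9% for the cell cycle and 20% for immediate-early genes. Only the oxidative phosphorylation list lay well below the share over all genes, and the ribosomal and immediate-early lists were near it. By direction, 10.6% of all genes were higher and 11.2% lower. Of 44 tested cytosolic ribosomal protein genes 9 were higher and none lower, none at 2-fold, and the median of 0.07 was -0.002 after quantile normalization, where 4 were called. Of 48 oxidative phosphorylation genes 3 were higher and none lower (median 0.16). Cell cycle and DNA replication genes were lower in 13 of 78 and higher in 1, with a median of -0.23. Ccnd1, cyclin D1, read 10.04, 10.03 and 10.30 in CD8+ and 11.57, 11.42 and 11.75 in CD11b+ cDC, and the polymerase gene Pola1 was lower (-1.04 ± 0.23), whereas Mki67, a marker of dividing cells, did not pass (-0.45 ± 0.21, adjusted p = 0.135) but did so in 2 of 13 other settings. Hells, a chromatin remodeler, was the member that was higher (1.18 ± 0.22). Of 35 tested immediate-early and tissue dissociation genes 5 were higher, among them Gadd45a (1.06 ± 0.23), and 2 lower, among them Dusp6 (-1.10 ± 0.29). Of 37 genes of protein folding in the endoplasmic reticulum 9 were higher and 3 lower, 32.4% in all and none by 2-fold, with a median of 0.24, and the disulfide isomerase gene Pdia3 was the highest (0.66 ± 0.13). Of 27 apoptosis genes 6 were higher and 2 lower (29.6%, against 21.8% of all genes), 4 of them by at least 2-fold, with Bcl2l14 (2.28 ± 0.18), the death receptor gene Fas (1.40 ± 0.26) and the BIM gene Bcl2l11 (1.20 ± 0.16) among the higher ones.

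The same subsets of PBS-injected B6 mice served as comparison, on arrays shared with no NOD group. There 2442 genes were called (21.7%), 1074 higher (9.57%) and 1368 lower (12.2%). Of the NOD genes 807 were higher in both strains, which is 67.7% of the NOD and 75.1% of the B6 list, and 906 were lower in both, 72.1% and 66.2%. In NOD 730 of the called genes (29.8%) did not pass in B6, but the difference between the strains itself passed for 39 of these. Over all genes that interaction, the NOD difference minus the B6 difference, was called for 99 genes (0.882%), 50 positive (0.445%) and 49 negative (0.436%). Only 5 genes were called in opposite directions in the strains, namely Gbp3, Rnf150, Fam102b, Melk and Ankrd50, of which the last 3 were picked out after their values were seen.

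The langerin gene had a larger CD8+ excess in NOD than in B6. In NOD Cd207 differed by 4.40 ± 0.24, and in B6 by 1.84 ± 0.24, where it read 6.33, 6.01 and 6.57 on the CD8+ and 4.19, 4.64 and 4.57 on the CD11b+ arrays. The interaction was 2.56 ± 0.34 (adjusted p = 0.000124 in the limma fit), and the difference lay in CD8+ cDC, since the CD11b+ arrays of both strains read between 4.19 and 4.84. The IFN-inducible GTPase gene Gbp3 was higher in NOD CD8+ cDC (0.71 ± 0.17) and lower in B6 CD8+ cDC (-1.29 ± 0.17), with an interaction of 2.01 ± 0.25. Apol7c, an apolipoprotein L gene, read 9.20, 8.06 and 8.25 in NOD CD8+ and 5.09, 4.40 and 5.17 in NOD CD11b+ cDC, against 12.32, 11.98 and 12.29 and 11.21, 10.23 and 10.98 in B6, an interaction of 2.23 ± 0.39. Mpeg1 also had a larger CD8+ excess in NOD (interaction 0.76 ± 0.16).

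Some genes stood out in NOD CD11b+ cDC among the 4 PBS groups. Trem1, an amplifier of inflammatory signals on myeloid cells, read 6.91, 7.41 and 7.70 there, 4.32, 4.57 and 4.35 in NOD CD8+ cDC, 4.17, 4.98 and 4.59 in B6 CD11b+ and 4.24, 3.82 and 4.24 in B6 CD8+ cDC (interaction -2.44 ± 0.32). The homeobox gene Vsx1 read 8.20, 8.28 and 8.08 in NOD CD11b+ cDC and between 4.90 and 5.79 on the other PBS arrays (interaction -2.37 ± 0.22). Lypd1 read 7.77, 7.68 and 7.57, and no other PBS array exceeded 6.00 (interaction -2.29 ± 0.23). Adamdec1 was lower in CD8+ cDC of both strains but by more in NOD (interaction -2.74 ± 0.37). Cygb, which encodes cytoglobin, read 11.06, 10.95 and 11.02 in NOD CD11b+ and 8.25, 7.63 and 7.93 in NOD CD8+ cDC, against 7.03, 7.31 and 7.20 and 6.26, 6.69 and 6.23 in B6, so that both NOD subsets lay above both of B6 and the CD11b+ subset by more (-2.28 ± 0.24). The sialyltransferase gene St6galnac2 had the same order (-2.30 ± 0.26). Candidate genes from diabetes susceptibility regions were lower in NOD CD8+ cDC in 8 of 20 and higher in 1. The counts were alike in B6, with 9 lower and 1 higher. Over all genes 11.2% were lower and 10.6% higher in NOD. In NOD Cd101 read 4.51, 4.60 and 4.22 in CD8+ and 6.66, 7.24 and 6.95 in CD11b+ cDC, and Ptpn22, a phosphatase of lymphocyte signalling, 8.67, 8.52 and 8.57 and 9.57, 9.70 and 9.55. The higher one in NOD was the cholesterol carrier gene Npc2 (1.04 ± 0.10). In this list the interaction of Icos (-1.52) and of Cd93 (-1.04 ± 0.21) passed. Cd93, a C-type lectin-like receptor gene, read 6.98, 6.72 and 6.86 in NOD CD11b+ and 5.82, 5.81 and 5.89 in B6 CD11b+ cDC, and its interaction did not pass without replicate 1 of NOD CD11b+ (adjusted p = 0.0512 against 0.014). Icos, a co-stimulatory receptor best known on T cells, read 7.05, 6.60 and 6.87 in NOD CD8+ and 8.08, 8.08 and 8.19 in NOD CD11b+ cDC, while in B6 the values were 8.18, 8.13 and 7.99 and 7.97, 7.76 and 7.86, so that the NOD CD8+ arrays were the low ones.

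**Figure D5:**
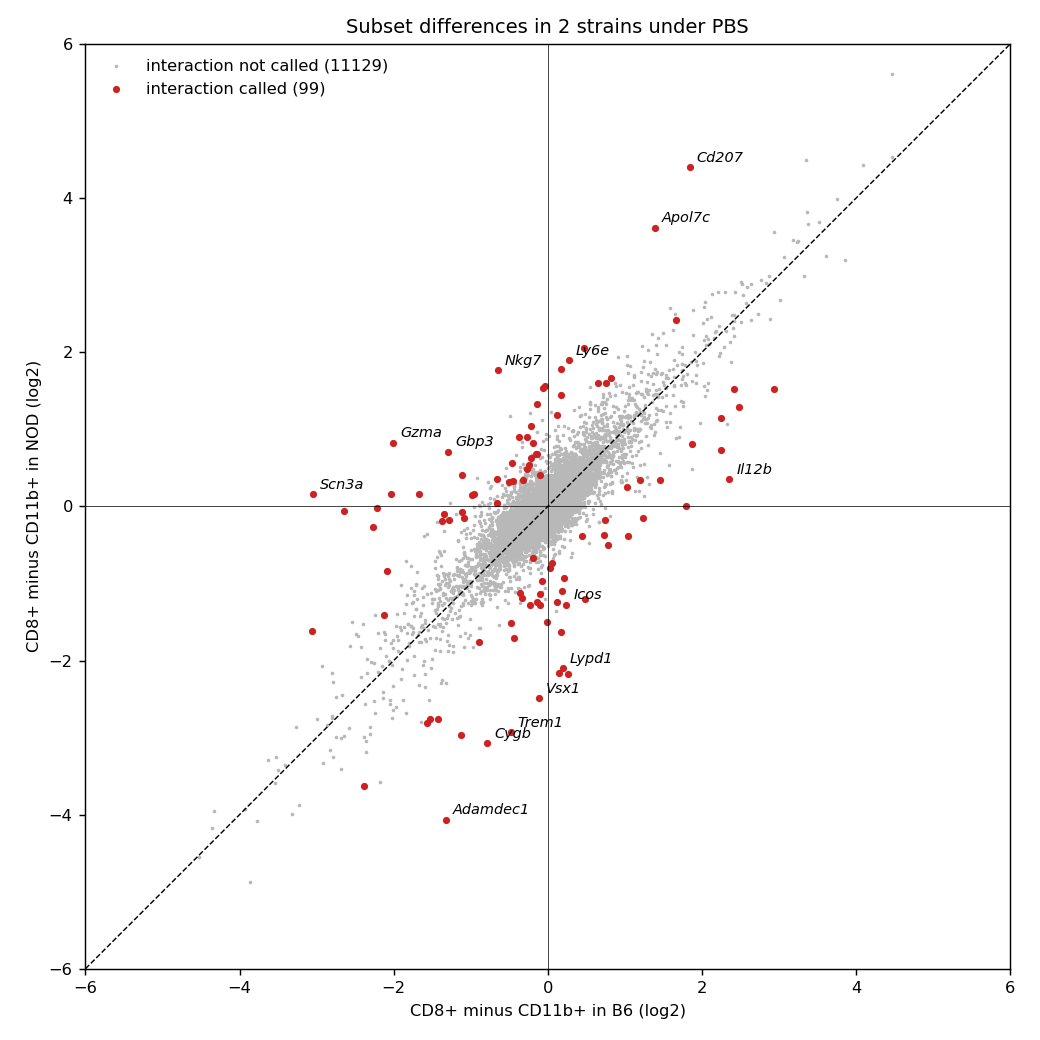
Difference between CD8+ and CD11b+ cDC (log2) in PBS-injected NOD mice (vertical) against B6 mice (horizontal), for the 11228 genes tested; red points are the 99 genes whose interaction passed the limma test, and the dashed line marks equal differences. Trem1, Vsx1, Lypd1 and Cygb lie below the line, Cd207, Gbp3 and Nkg7 above it, and Il12b and Scn3a near 0 on the NOD axis only.

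Il12b, Scn3a, Nxpe4 and Ifi213 separated the subsets by more in B6 than in NOD. Il12b read 9.16, 8.96 and 8.85 in B6 CD8+ and 6.75, 6.48 and 6.67 in B6 CD11b+ cDC, whereas the NOD arrays read 6.74, 6.39 and 6.68 and 6.46, 6.02 and 6.28 (interaction -2.00 ± 0.24). The sodium channel gene Scn3a was at 7.50, 7.53 and 7.54 in B6 CD11b+ cDC and at or below 4.75 on every other PBS array (interaction 3.20 ± 0.18). Nxpe4 read 7.38, 7.22 and 7.22 there and no more than 5.15 on the other PBS arrays (interaction 2.20 ± 0.19), and the IFN-inducible gene Ifi213 7.98, 7.95 and 7.52 and no more than 6.27 (2.58 ± 0.42). Cybb read 10.94, 11.08 and 11.08 in B6 CD11b+ cDC and 9.73, 9.95 and 10.28 in NOD CD11b+ cDC, while the CD8+ arrays read 9.57, 9.94 and 9.47 in B6 and 10.00, 9.78 and 9.59 in NOD. Its interaction was 1.18 ± 0.27 (adjusted p = 0.0281), with adjusted p from 0.0501 to 0.111 in the 9 of 12 fits without 1 PBS array in which it did not pass. The surface protein gene Ly6e was lower in NOD CD11b+ cDC (9.87, 10.38 and 11.35, with replicate 3 the nearest to the others) than in NOD CD8+ cDC (12.29, 12.44 and 12.57), against 12.49, 12.48 and 12.51 and 12.69, 12.82 and 12.79 in B6 (interaction 1.63 ± 0.27). Gzma, the granzyme A gene, read 7.84, 8.80 and 6.92 in B6 CD11b+ cDC against 4.79, 5.02 and 5.56 in NOD CD11b+ cDC, and 5.87, 6.07 and 5.59 and 5.83, 5.66 and 6.37 in the CD8+ subsets (interaction 2.84 ± 0.51). Xcl1, the ligand of XCR1, was higher in NOD CD8+ cDC (7.84, 8.29 and 7.83 against 5.95, 6.33 and 6.32), while in B6 it read 7.70, 8.58 and 7.87 and 7.85, 8.21 and 7.57. Its interaction of 1.61 ± 0.39 was at the threshold (adjusted p = 0.0466) and missed it without any single PBS array except replicate 2 of B6 CD8+ (adjusted p from 0.05 to 0.167), and in 5 of 13 other settings. Of the 17 tested NK cell markers 7 were lower in CD8+ cDC of B6 and 3 in NOD, and Gzma, Nkg7 and Ccl5 among them had a called interaction; the part of NK cells in it was not tested. Sequence differences of NOD under the probes can lower a reading in that strain and were not tested here.

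After CpG-A the fit of all 24 arrays called 4335 genes (38.6%) between the NOD subsets, against 2448 under PBS. Of the 4335, 1624 were higher (14.5%) and 2711 lower (24.1%) in CD8+ cDC. When each comparison was fitted on its own 6 arrays the order was the other way, with 2554 calls after CpG and 2750 under PBS. Of the genes higher under PBS 761 were higher after CpG too, 63.8% of the resting and 46.9% of the CpG list, and of those lower 1034 were lower in both, 82.3% and 38.1%. The change in the subset difference was called for 764 genes (6.8%). Clec4b2 went from 3.67 ± 0.17 under PBS to 0.49 ± 0.17 after CpG (change -3.18 ± 0.24), Hepacam2, a cell adhesion gene, from 3.20 ± 0.17 to 0.58 ± 0.17 (-2.61 ± 0.24), and Cxcl9 from 2.78 ± 0.16 to 0.75 ± 0.16 (-2.04 ± 0.22). Tlr3 went from 2.99 ± 0.22 to 0.94 ± 0.22 (-2.05 ± 0.31). Pdcd1lg2, lower in resting CD8+ cDC, did not pass after CpG, at 0.06 ± 0.19 (2.04 ± 0.27). Ifit3 went from -3.36 ± 0.25 to -1.03 ± 0.25 (2.33 ± 0.35) and Rtp4, another IFN-stimulated gene, from -3.29 ± 0.24 to -1.07 ± 0.24 (2.22 ± 0.34). In contrast Cd8a (4.80 ± 0.26), Xcr1 (4.23 ± 0.22), Clec4a4 (-4.80 ± 0.22) and Mmp12 (-4.00 ± 0.20) kept their directions after CpG. Arrays of NOD CD8+ cDC after CpG were less alike, with a mean correlation to their own group of 0.95 to 0.971 against 0.982 to 0.985 for the 6 resting NOD arrays. The count of 764 was 1676 without replicate 3 of that group, 479 without replicate 3 of the resting NOD CD8+ arrays and 303 in a fit of these 12 arrays alone.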

How the data were processed

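Gene expression was measured on 24 single-colour arrays, 3 for each of 8 groups. The deposited values are log2 expression values per probe set, which the authors made with Partek and RMA according to the submitters' processing notes. Versions and the genome build of the array annotation are not given in the sources used here. Of 35556 probe sets, 21789 had 1 gene symbol in the platform annotation, 1621 had several and 12146 were not listed. The protocol in the labels names another array model than this annotation, and every gene name here rests on the match of probe set numbers to it. Each gene was read from its probe set with the highest mean over all arrays (999 genes had more than 1). A gene was tested if it exceeded the array's own median, over listed probe sets, on at least 3 of 24 arrays, which left 11228 genes. Arrays give no read depth, so their number limits the precision.

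Groups came from the sample titles. A model of group means was fitted to all 24 arrays with limma 3.58.1 (R 4.3.3, statmod 1.5.0), with 16 residual degrees of freedom, eBayes with a trend and Benjamini-Hochberg adjustment, and 5 contrasts were tested. The scripts were tested on simulated data. Of NOD PBS arrays with the same replicate number, the deviations from the group means correlated at 0.178, 0.105 and 0.151. Between NOD and B6 PBS arrays with the same number the correlations ran from -0.1 to 0.288. The numbers come from the titles, which do not say what they mark, and whether they pair arrays was not tested. No pair of arrays held identical values.

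The members and gene lists were chosen with earlier results of these data known. Named genes are the 20 highest and 20 lowest called genes with no overlap, up to 6 called genes in each direction and up to 3 bright uncalled genes of each list beside its core members, the 12 most positive and most negative of each interaction, and members of runs of at least 3 neighbours. The alternatives tried were the filter, the choice of probe set, quantile normalization, median centring, the eBayes settings, array weights, the replicate block, fits of fewer arrays and leaving out each array.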

Additional observations from a re-analysis of the deposited data

Results flagged for a closer look

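Genes named above whose subset difference differed between NOD and B6 under PBS, by limma's test of the interaction, are given with the NOD difference minus the B6 difference on the log2 scale. It was positive for Scn3a (3.20), Gzma (2.84), Ifi213 (2.58), Cd207 (2.56), Nkg7 (2.42), Apol7c (2.23), Nxpe4 (2.20), Gbp3 (2.00), Ly6e (1.63), Xcl1 (1.61), Cybb (1.18) and Mpeg1 (0.76). It was negative for Adamdec1 (-2.74), Trem1 (-2.44), Vsx1 (-2.37), St6galnac2 (-2.30), Lypd1 (-2.29), Cygb (-2.28), Il12b (-2.00), Icos (-1.52) and Cd93 (-1.04).

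Between CpG and PBS in NOD the subset difference changed upward in Ifit3 (2.33), Rtp4 (2.22) and Pdcd1lg2 (2.04). It changed downward in Clec4b2 (-3.18), Hepacam2 (-2.61), Tlr3 (-2.05) and Cxcl9 (-2.04).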

How the results depend on the processing

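The 2448 calls between resting NOD subsets became 2036 to 2147 when 1 of the 6 arrays was left out, 2243 with a filter of 12 arrays, 2562 after quantile normalization and 3204 with array weights. With the replicate block, which pairs same-numbered arrays, 2772 genes were called, and the calls of Batf3, Il1b, S100a9 and C1qc were the only ones among 202 named genes that the block changed. Leave-one-out gave 1941 to 2096 calls in B6. The 99 strain interactions were 51 with the 12-array filter, 195 with array weights, 181 in a fit of the 12 PBS arrays alone (once planned and once added after seeing the data, on the same arrays), and 63 to 91 without 1 array, the lowest without CD8+ B6 replicate 3 or CD11b+ NOD replicate 2. The 4335 calls after CpG were 2554 in their 6 arrays alone, where the resting subsets had 2750 in theirs, and 3422 to 4824 without 1 array. The 764 CpG interactions were 2321 with array weights, 303 in their 12 arrays alone and 479 to 1676 without 1 array. The weights were 12.48 for replicate 2 of NOD CD8+ after CpG and 0.15 and 0.39 for replicates 1 and 3. In the weighted fit the mean of that group thus rests mostly on 1 array. The cause of these shifts was not tested. No named gene reversed under any setting. Of 202 genes named in the resting NOD comparison 9 changed their call under at least 1 setting, as did 3 of 21 in the strain interaction and 0 of 7 in the CpG interaction, which all held under limma in each setting run. Of 666 genes with at least 2 tested probe sets none had opposite calls and 90 had some called and some not. With 3 arrays per group, genes that did not pass may still differ.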
